A study of Homo sapiens with 20 samples.

Results

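The 10 genes described here encode proteins that tie the actin skeleton to the matrix at focal adhesions: the talins TLN1 and TLN2, testin (TES), vinculin (VCL), zyxin (ZYX), paxillin (PXN), integrin beta 1 (ITGB1), filamin A (FLNA) and the alpha-actinins ACTN1 and ACTN4. They were taken by name from the 36346 gene names measured in each of 20 RNA sequencing libraries, and all 10 were found. TLN1 and TES were selected on their measured values in SW480, where TLN1 was higher and TES lower after silencing of POLR1D, so their SW480 differences from the control are given as a description with no test. The other 8 were listed as their partners and were tested. They were listed with earlier results of these data known, so their tests are not independent of the data.

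HT29 and SW480 are established human colorectal cancer cell lines. HT29 carries a focal amplification at 13q12.2, where POLR1D lies, and SW480 a gain of the whole of chromosome 13. POLR1D encodes a subunit shared by RNA polymerases I and III, which transcribe ribosomal RNA and small RNAs such as transfer RNAs. Cells received either a scrambled siRNA as control (SCR) or the siRNA siPOLR1D2 or siPOLR1D3, both directed at POLR1D, and their RNA was taken 72 h later. For HT29 there were 4 SCR, 2 siPOLR1D2 and 2 siPOLR1D3 libraries, and for SW480 6 SCR, 3 siPOLR1D2 and 3 siPOLR1D3 libraries. All groups were transfected, no untransfected cells are analysed here, and the labels do not say whether libraries of a group came from separate cultures, so p-values measure the spread between these libraries. As a library averages many cells, a change in every cell and a change in some of the cells cannot be told apart.

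Focal adhesions form where integrins, receptors of an alpha and a beta chain, bind the extracellular matrix. Talin binds the tail of the beta chain, activates the receptor and connects it to actin. Under tension talin unfolds and recruits vinculin, paxillin is an early scaffold for kinases such as FAK and SRC, and zyxin and testin are LIM domain proteins of mature adhesions and stress fibres that bind each other. Filamin and alpha-actinin crosslink actin filaments. Several genes of this machinery are known targets of serum response factor (SRF) with its MRTF cofactors, which bind a sequence called the CArG box, and of the YAP partners of the TEAD family.

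The starts of TES and ACTN1 are shown first because the control of adhesion genes by SRF is read from such sequences. Within the 250 bases before each annotated start (RefSeq, GRCh38.p14), all 10 genes matched, with 17 windows between them. A CArG box, searched on both strands, occurred in 3 of the 17 windows, belonging to TES, FLNA and ACTN1, against 1.16% of the 35116 windows of the same length over all genes. The TEAD motif GGAATG, also searched on both strands, occurred in 5 of the 17 windows, from 5 genes, against 11.9% of all windows. The 2 stretches below come from alternative starts of their genes and run 5′ to 3′ on the strand of the gene, with the CArG box in capitals. The first lies at chr7:116222703-116222803 on the plus strand and the second at chr14:68977655-68977816 on the minus strand, and neither holds an annotated exon.
TES: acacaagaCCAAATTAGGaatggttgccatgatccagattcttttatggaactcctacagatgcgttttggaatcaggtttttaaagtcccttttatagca
ACTN1: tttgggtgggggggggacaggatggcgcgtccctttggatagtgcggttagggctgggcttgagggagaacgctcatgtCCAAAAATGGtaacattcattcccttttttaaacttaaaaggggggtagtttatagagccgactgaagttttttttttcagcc
The CArG box of TES began 242 bases before its start, and its last bases were also the first of a GGAATG. The box of ACTN1 began 171 bases before its start, and that of FLNA, CCAATTAAGG, began 94 bases before its start. A match of letters is a description and not a binding site, and the values below are sums over all transcripts of a gene, so they cannot be assigned to one start.

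The deposited values are counts normalized with DESeq2 within each line, called normalized counts here, and they were compared as log2(value + 1) with limma, which fits all genes together. A gene was called when its p-value, adjusted over all genes tested by the Benjamini-Hochberg method, was under 0.05. With the commonest low value of a library taken as 1 read, depth was estimated at 13500000 to 22800000 reads in HT29 and 18700000 to 27500000 in SW480. Only 4.41% to 27.9% of the low values of a library were whole multiples of that value, so these depths are rough. Summed epithelial markers lay between 217867 and 260089 in HT29 and between 139163 and 270010 in SW480, with CDX2 under 10 in every HT29 library, and the markers of other cell types summed to 22216 to 32408 in HT29, which LYZ dominates, and to 167 to 883 in SW480. CD3E was under 10 in every library. In HT29 the first principal component (43.3% of the variance) set SCR replicate 1 apart. In SW480 the first component (42.0%) set SCR replicates 1 to 3 and siPOLR1D2 replicates 1 and 2 on one side, with SCR replicate 1 in between, and the other 7 libraries on the other side. The names ZYX and ACTN4 each had 2 entries with identical values, which were summed, so their levels count the same reads 2 times while their fold changes are not affected.

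POLR1D itself was lower in every silenced library. In SW480 it ran from 1829 to 2599 normalized counts in SCR (median 2030), from 913 to 1336 with siPOLR1D2 and from 843 to 1174 with siPOLR1D3, which limma put at -1.04 on the log2 scale (SE 0.13, adjusted p = 0.000991). In HT29 the SCR libraries held 6036, 4711, 4433 and 5010, the siPOLR1D2 libraries 3414 and 3492 and the siPOLR1D3 libraries 2858 and 2550. The HT29 groups did not overlap, but the log2 fold change of -0.72 (SE 0.14) had an adjusted p of 0.355 in limma.

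TLN1, the ubiquitous talin, stood more than 2-fold higher in silenced SW480 cells. The 6 SCR libraries ran from 2127 to 2581 normalized counts (median 2380). With siPOLR1D2 the values were 5766, 5614 and 3994, and with siPOLR1D3 they were 5858, 4727 and 4971. The lowest silenced library thus lay well above the highest SCR library, and siPOLR1D2 replicate 3 was the lowest of the silenced ones. The means were 2362 ± 159 (SD, n = 6) and 5155 ± 727 (SD, n = 6), a ratio of 2.18, and the log2 fold change was 1.12 (SE 0.10, 95% interval 0.89 to 1.34).

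TES, a LIM protein of adhesions and of cell-cell contacts, went the other way. The SCR libraries ran from 2278 to 4256 normalized counts (median 3045). The siPOLR1D2 libraries held 1111, 1583 and 1280, and the siPOLR1D3 libraries held 952, 1128 and 1182. Every silenced library lay below every SCR library, and the spread was wider in SCR (3215 ± 743, SD, n = 6) than in the silenced cells (1206 ± 213, SD, n = 6). The silenced mean was 2.67-fold lower, with a log2 fold change of -1.40 (SE 0.16, 95% interval -1.74 to -1.06). Libraries that did not overlap in either direction made up 4.57% of the 15019 genes tested, with 1.68% higher and 2.88% lower. Since the choice of TLN1 and TES rests on this contrast, nothing is read from these shares for them.

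**Figure D1:**
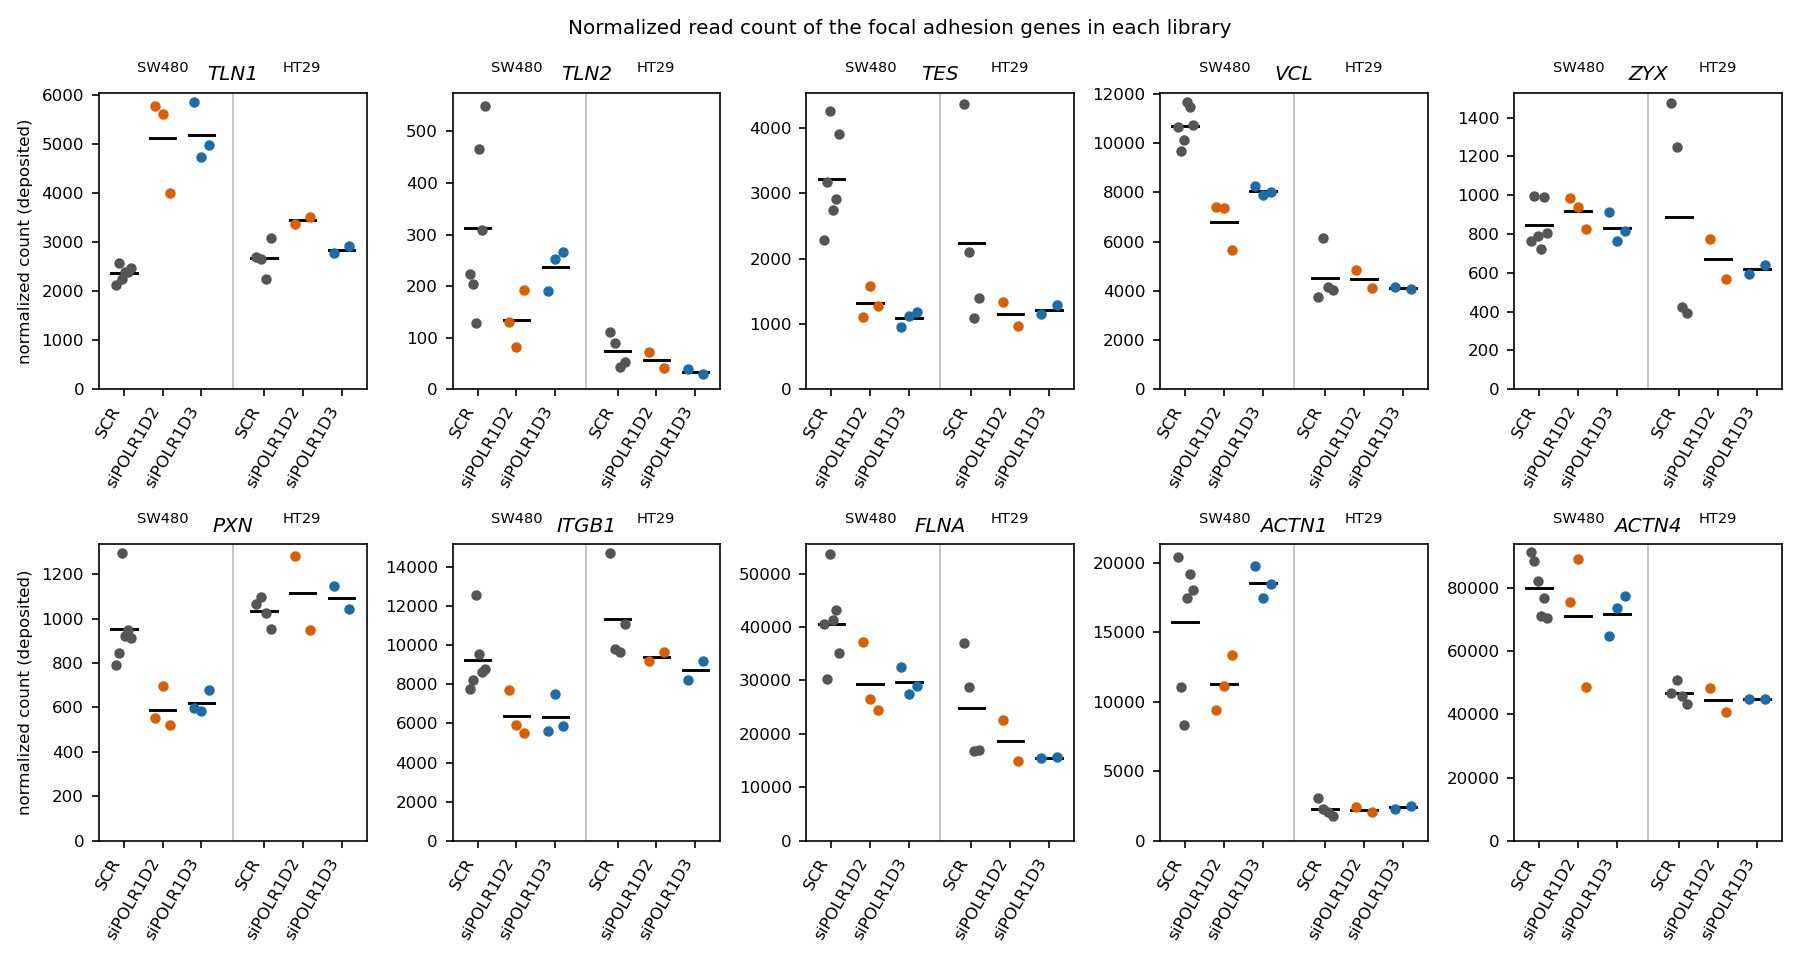
Normalized counts of the 10 genes in each library (vertical axis, linear, from 0), with SW480 on the left and HT29 on the right of each panel, 1 point per library and a bar at the group mean, the lines being normalized separately. In SW480 the TLN1 points of both siRNAs lie above all 6 SCR points and the TES points below them, whereas in HT29 the TES points overlap those of SCR.

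Among the 8 partners tested in SW480, 3 fell, VCL, PXN and ITGB1, and none rose. As the 8 were listed with earlier results known, this count is a description. Over all 15019 genes 6.73% were called, 2.44% higher and 4.29% lower. VCL, the talin-binding vinculin, ran from 9665 to 11664 normalized counts in SCR (median 10699). It held 7406, 7360 and 5677 with siPOLR1D2 and 8243, 7895 and 8000 with siPOLR1D3. Both siRNAs left every library below the lowest SCR library, and siPOLR1D2 replicate 3 was the lowest. The means were 10718 ± 765 and 7430 ± 925 (SD, n = 6 each), and limma put the log2 fold change at -0.54 (SE 0.10, adjusted p = 0.00864).

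PXN, the scaffold paxillin, ran from 789 to 1297 normalized counts in SCR (median 918). It held 553, 696 and 519.5 with siPOLR1D2 and 599.6, 585 and 678 with siPOLR1D3. The groups did not overlap, and the SCR range was stretched by replicate 3, the highest library. The means of 952 ± 179 and 605 ± 69.3 (SD, n = 6 each) differed by -0.64 on the log2 scale (limma, SE 0.13, adjusted p = 0.0118). The calls of VCL and PXN held with each of the 12 libraries left out in turn, at adjusted p of at most 0.0245 and 0.0283 from limma.

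ITGB1, the beta chain shared by the largest group of matrix receptors, ran from 7757 to 12582 normalized counts in SCR (median 8716). It held 7717, 5938 and 5521 with siPOLR1D2 and 5598, 7500.0 and 5863 with siPOLR1D3. The groups did not overlap, but the highest silenced library came within a short distance of the lowest SCR library. The means of 9265 ± 1734 and 6356 ± 985 (SD, n = 6 each) differed by -0.54 on the log2 scale (limma, SE 0.13, adjusted p = 0.0270). This call was lost when SCR replicate 4 or 6, siPOLR1D2 replicate 3, or siPOLR1D3 replicate 1 or 3 was left out, with adjusted p up to 0.0625 from limma. In an exact 2-sided permutation test over the 12 libraries VCL, PXN and ITGB1 each gave p = 0.00216, the smallest this design allows.

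The actin crosslinkers did not pass the threshold in SW480. FLNA ran from 30217 to 53609 normalized counts in SCR and from 24419 to 37159 in the silenced cells, 4 of which lay below every SCR library. Limma put its log2 fold change at -0.45 (SE 0.14, adjusted p = 0.0699), with an exact permutation p of 0.0130, and it passed the threshold when SCR replicate 2 (adjusted p = 0.0375) or siPOLR1D2 replicate 1 (0.0454) was left out. ACTN4 held 80090 ± 8867 in SCR and 71517 ± 13682 in the silenced cells (SD, n = 6 each), a log2 fold change of -0.18 (adjusted p = 0.473). ACTN1 overlapped throughout, at -0.06 on the log2 scale (limma, SE 0.24, adjusted p = 0.912), a value that turned to 0.011 with upper quartile scaling. ZYX, the binding partner of testin, held 844 ± 119 in SCR and 873 ± 84.4 in the silenced cells (SD, n = 6 each), or 0.055 on the log2 scale (limma, SE 0.11, adjusted p = 0.809).

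TLN2, the second talin, did not move with TLN1. It ran from 129 to 549 normalized counts in SCR and from 81.0 to 267 in the silenced cells. Limma put the difference at -0.69 on the log2 scale (SE 0.37, adjusted p = 0.279). SCR replicates 1 to 3 held 185 ± 49.6 and SCR replicates 4 to 6 held 441 ± 123 (SD, n = 3 each), so part of its spread within SCR lay along the first principal component. With the side of that component as a covariate the log2 fold change was -0.89 (adjusted p = 0.0105), and within the second side it was -0.94 (adjusted p = 0.0199). Those fits called 1993 of 15019 and 1939 of 15553 genes. The sides were taken from these same values, and dividing libraries by them can lower the spread within groups. The p-values of fits that use the side are therefore a description, here and below.

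TLN1 and TES differed from SCR in the same direction on both sides of that component. As neither gene overlapped between silenced and SCR libraries, this direction was fixed beforehand and is no support. TLN1 had a log2 fold change of 1.30 on the first side (3 SCR against 2 silenced) and of 1.01 on the second (3 SCR against 4 silenced). TES had -1.24 and -1.48. On the second side VCL (-0.61, adjusted p = 0.0145), PXN (-0.64, 0.00820), ITGB1 (-0.57, 0.0132) and FLNA (-0.49, 0.0215) were all called by limma. Over all genes 1939 of 15553 were called there, 1069 of them lower, and 0 of 15110 on the first side. On the first side none of these 4 was called, with log2 fold changes of -0.46 for VCL, -0.62 for PXN, -0.46 for ITGB1 and -0.36 for FLNA (adjusted p = 0.407, 0.490, 0.594 and 0.704). The silenced libraries were siPOLR1D2 replicates 1 and 2 on the first side, and siPOLR1D2 replicate 3 with every siPOLR1D3 library on the second. A difference between the sides thus cannot be told apart from a difference between the siRNAs.

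Each siRNA was then set against the SCR libraries, which both contrasts share. TLN1 had a log2 fold change of 1.10 with siPOLR1D2 and of 1.13 with siPOLR1D3. TES had -1.26 and -1.54. With siPOLR1D2, 2 of the 8 partners were called, both lower, against 7.4% of 16007 genes (2.83% higher and 4.57% lower): VCL at -0.66 (adjusted p = 0.00360) and PXN at -0.68 (adjusted p = 0.0203). With siPOLR1D3 the called partners were again VCL at -0.41 (adjusted p = 0.0398) and PXN at -0.60 (adjusted p = 0.0400), against 6.2% of genes (2.13% higher and 4.07% lower). With siPOLR1D3 both calls were lost with upper quartile scaling (adjusted p = 0.125 for VCL and 0.0789 for PXN) and with quantile normalization (0.178 and 0.0537). Both were lost too when genes with low values were not filtered out (0.0706 and 0.0546). They were also lost without SCR replicate 4, 5 or 6 or any 1 of the siPOLR1D3 libraries, PXN without siPOLR1D2 replicate 1 too, with adjusted p up to 0.152 for VCL and 0.176 for PXN. The siPOLR1D2 call of PXN was lost without siPOLR1D2 replicate 1 (0.0901) or 3 (0.0781). Against SCR replicates 1 to 3 alone both siPOLR1D2 calls were lost, with VCL at -0.58 (adjusted p = 0.208) and PXN at -0.70 (adjusted p = 0.275), in a fit that called 0 of 14800 genes. Against SCR replicates 4 to 6 alone VCL (adjusted p = 0.00143), PXN (0.00318), ITGB1 (0.00783), FLNA (0.0125) and TLN2 (0.0146) were called lower with siPOLR1D3. That fit called 3110 of 15414 genes, 1681 of them lower. ITGB1 had -0.53 and -0.55 (adjusted p = 0.0657 and 0.0646), values that fell below 0.05 without SCR replicate 1 (0.0416 and 0.0455).

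The 2 siRNAs were compared directly, and 0 of the 10 genes were called by limma, against 2.94% of 16007 genes (1.46% higher and 1.48% lower). The pooled difference on which TLN1 and TES were chosen came from the same silenced libraries. Such a choice can favour genes on which the siRNAs agree, so for these 2 genes the values are a description. 1 of the 10 had an unadjusted p under 0.05, against 21.3% of all genes. For TLN1 siPOLR1D3 minus siPOLR1D2 was 0.030 on the log2 scale (95% interval -0.29 to 0.35), and for TES it was -0.28 (95% interval -0.74 to 0.19). VCL differed by 0.25 (95% interval -0.014 to 0.51), and TLN2 by 0.88 (95% interval -0.14 to 1.91). ACTN1 was the gene with an unadjusted p under 0.05 (0.0267 in limma, adjusted 0.177). It held 9411, 11124 and 13342 normalized counts with siPOLR1D2 and 19774, 17485 and 18460 with siPOLR1D3, so the siRNAs did not overlap, but SCR spanned 8331 to 20427. Its log2 difference was 0.73 (95% interval 0.099 to 1.36).

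**Figure D2:**
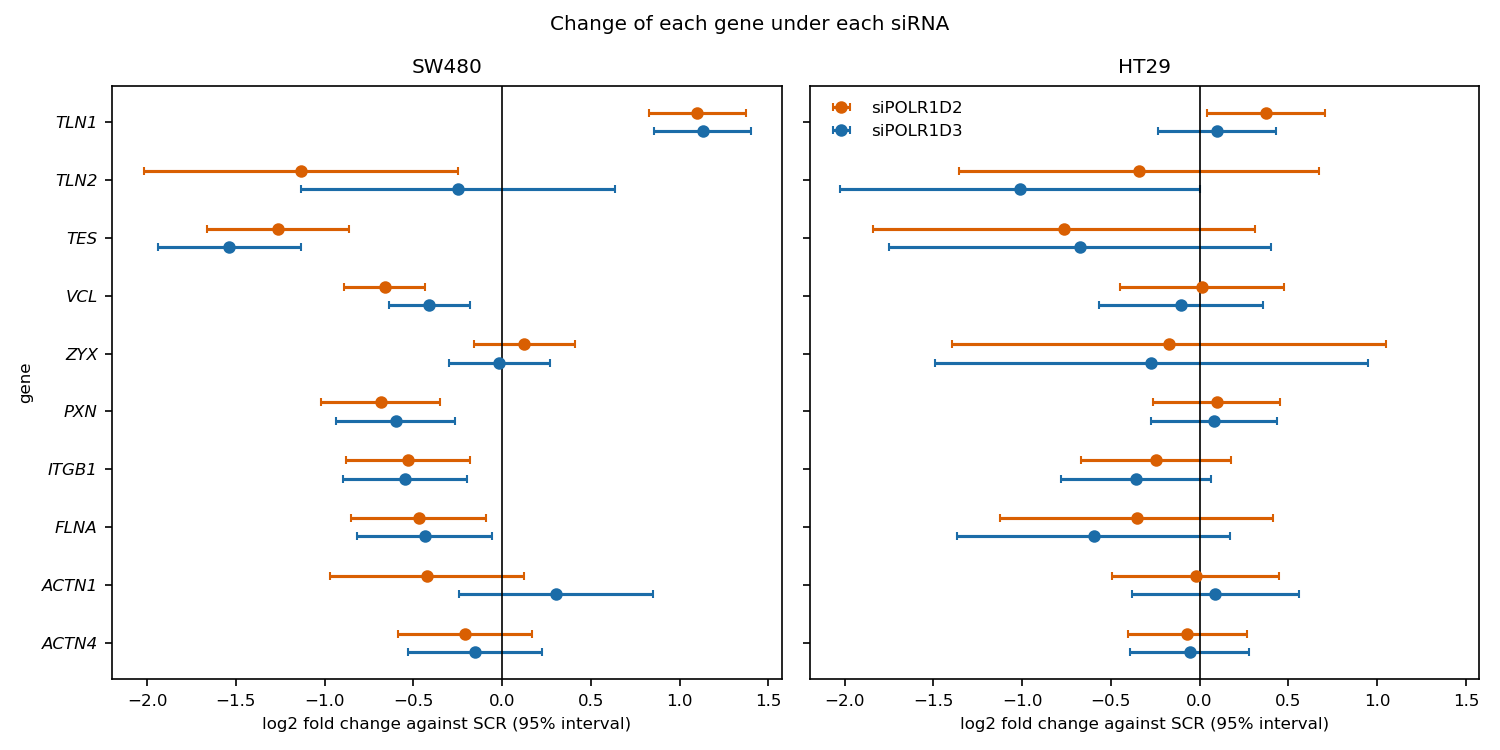
Log2 fold change of each of the 10 genes against SCR (horizontal axis) for siPOLR1D2 and siPOLR1D3, with 95% intervals from limma, SW480 and HT29 in separate panels. In SW480 both siRNAs lie near 1.1 for TLN1 and below -1.2 for TES, and ACTN1 is at -0.43 with siPOLR1D2 and at 0.31 with siPOLR1D3.

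In HT29 none of the 10 genes was called by limma, in a contrast where 0 of 13274 genes (0%) passed the threshold and 1422 (10.7%) had an unadjusted p under 0.05. TLN1 held 2695, 2650, 2243 and 3083 normalized counts in SCR, 3363 and 3517 with siPOLR1D2, and 2767 and 2913 with siPOLR1D3. Only the siPOLR1D2 libraries lay above every SCR library. Limma put the difference at 0.24 on the log2 scale (SE 0.13, adjusted p = 0.518), and the exact permutation p was 0.143, where the smallest possible is 0.0286. By siRNA it was 0.38 (SE 0.15, adjusted p = 0.843, unadjusted 0.0316) with siPOLR1D2 and 0.099 (adjusted p = 0.884) with siPOLR1D3.

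TES in HT29 held 4374, 2097, 1092 and 1399 normalized counts in SCR, 1339 and 969 with siPOLR1D2, and 1148 and 1282 with siPOLR1D3. SCR replicate 1, the library that stood apart, was the highest, and the other SCR libraries reached down to the silenced ones. Limma put the difference at -0.72 on the log2 scale (SE 0.36, adjusted p = 0.499), with an exact permutation p of 0.171, and at -0.33 (adjusted p = 0.609) without SCR replicate 1. FLNA and ZYX were likewise highest in that library, at 37045 and 1475, with log2 fold changes of -0.48 (adjusted p = 0.527) and -0.22 (adjusted p = 0.843).

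ITGB1 was the only 1 of the 10 whose HT29 groups did not overlap, against 6.89% of all genes there (2.72% higher and 4.17% lower). It held 14724, 9799, 9662 and 11103 normalized counts in SCR, 9183 and 9644 with siPOLR1D2, and 8204 and 9220 with siPOLR1D3. The gap between the lowest SCR and the highest silenced library was small. The difference in limma was -0.30 on the log2 scale (SE 0.14, adjusted p = 0.491), and the exact permutation p was 0.0286, the smallest possible and the only 1 under 0.05 among the 10 genes tested. It was -0.17 (adjusted p = 0.559) without SCR replicate 1.

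VCL and PXN, which fell in SW480, had HT29 log2 fold changes of -0.045 (adjusted p = 0.924) and 0.089 (adjusted p = 0.774). VCL turned to 0.0078 with upper quartile scaling. The test of the difference in response between the lines called neither of them by limma, in a fit that called 6 of 16203 genes (0.037%, with 0.0247% higher and 0.0123% lower). PXN differed by -0.73 (SE 0.18, adjusted p = 0.184 from limma) and VCL by -0.49 (SE 0.18, adjusted p = 0.419). For TLN1 and TES the differences were 0.88 (SE 0.16) and -0.68 (SE 0.38), given with no test because they hold the SW480 contrast. The remaining HT29 values were -0.68 for TLN2 (adjusted p = 0.526), 0.033 for ACTN1 (0.948) and -0.062 for ACTN4 (0.834), all from limma.

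A wider list of 111 genes of adhesion and the stress fibre, none of them among the 10, was read in the same fits. It too was drawn up with earlier results of these data known, so its shares are a description. In SW480, 107 were measured, 0 rose and 11 fell, or 10.3% against 6.73% of all genes (4.29% lower). The median log2 fold change was -0.20 against 0.013 over all genes, and 76 of the 107 were negative. With upper quartile scaling 8 were called, where 1040 of 15019 genes were, and with quantile normalization 8, where 1109 of 15019 were. Under both scalings the list thus lay close to the share of all genes.

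Of the 10 other integrin chains measured 0 were called, while their median was -0.62, 9 were negative and 7 had an unadjusted p under 0.05, against 23.2% of all genes. The 18 integrin activators and scaffolds had a median of -0.10 and no call.

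Of the 19 kinases and adaptors, PTK2B, the FAK relative PYK2 (-0.93, adjusted p = 0.0470), and FYN, a SRC family kinase (-0.58, adjusted p = 0.0264), fell. Of the 18 partners of zyxin and testin and other LIM proteins, AJUBA, a LIM protein (-0.79, adjusted p = 0.0356), and VASP, which promotes actin filament growth and binds zyxin (-0.64, adjusted p = 0.0436), fell. Of the crosslinkers and stress fibre genes, TPM4, a tropomyosin that coats actin filaments, went from 11156 ± 893 to 6518 ± 1941 normalized counts (SD, n = 6 each; log2 fold change -0.82, adjusted p = 0.0110). The myosin light chain genes MYL12A (-0.64, adjusted p = 0.0258) and MYL12B (-0.63, adjusted p = 0.00764) and the cytoplasmic actin gene ACTG1 (-0.49, adjusted p = 0.0359) fell too. MYL12A and MYL12B are near-identical copies, so reads may be shared between them. Of the 6 genes for SRF, its cofactors and early targets, ANKRD1, a target of YAP and MRTF, fell (-0.85, adjusted p = 0.0408).

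TPM4 and MYL12B were called with each of the 12 libraries left out in turn. PTK2B, FYN, AJUBA, VASP, MYL12A, ACTG1 and ANKRD1 each lost the call in at least 4 of those 12 fits, and the number called ranged from 4 to 14, with 7 or fewer without SCR replicate 3, 4, 5 or 6, siPOLR1D2 replicate 3 or any 1 of the siPOLR1D3 libraries. In HT29 97 of the 111 were measured, 0 were called by limma, 15 had an unadjusted p under 0.05, against 10.7% of all genes, and the median was -0.062.

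**Figure D3:**
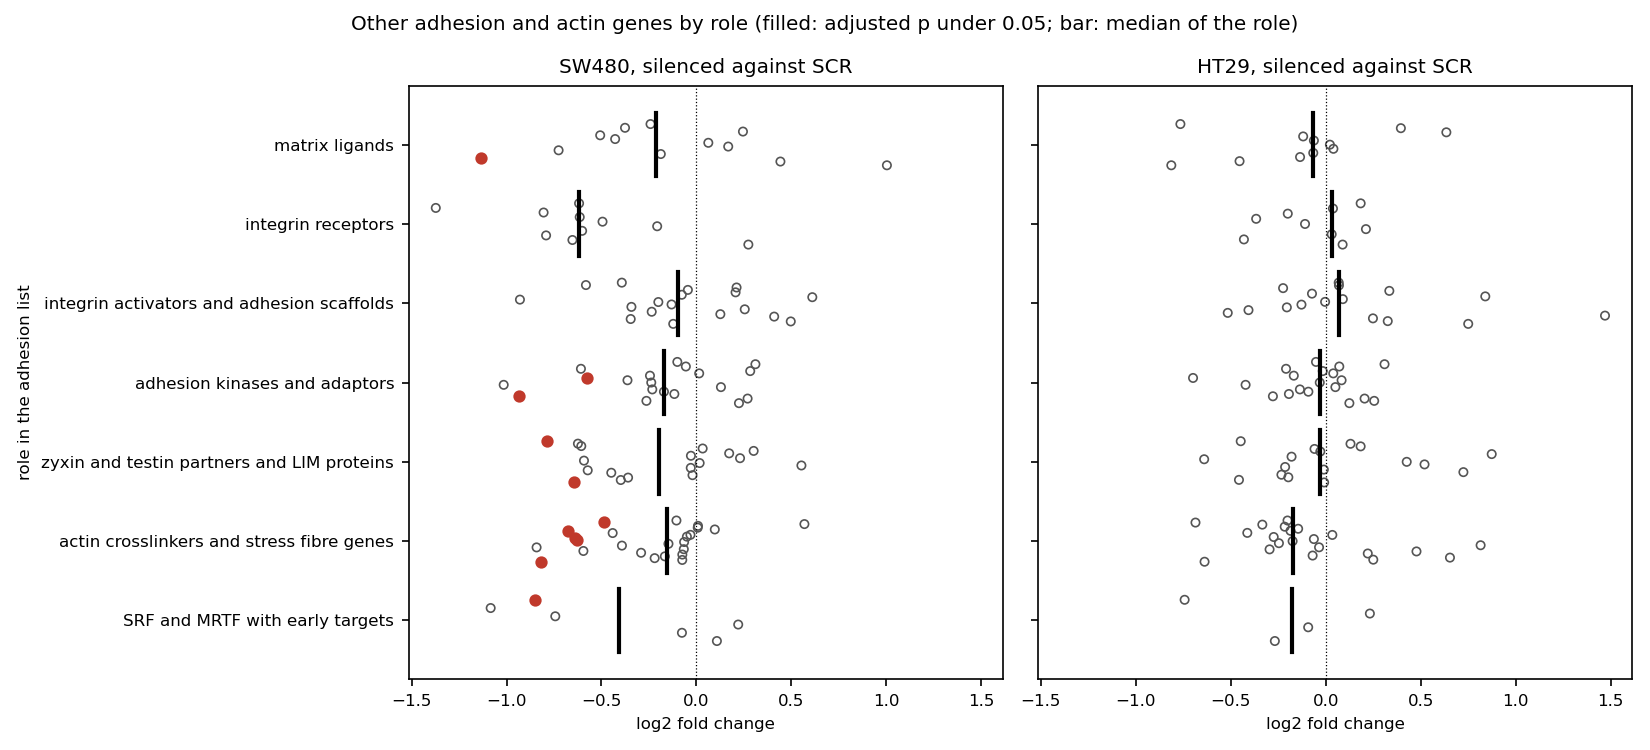
Log2 fold change of the adhesion genes, silenced against SCR (horizontal axis), in SW480 (left) and HT29 (right), by 7 roles from matrix ligands to SRF and MRTF, with 1 point per gene, filled where the adjusted p was under 0.05, and a bar at the median of each role. All filled points are in SW480 and lie below 0, and the integrin receptors have the lowest median there, -0.62, with no filled point.

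By siRNA, 15 of 108 listed genes fell with siPOLR1D2 and 0 rose (13.9% called, against 7.4% of all genes), and 9 fell and 1 rose with siPOLR1D3 (9.26%, against 6.2%). Against SCR replicates 1 to 3 alone, which lay on the first side, siPOLR1D2 left 0 of the list called, as it did of all genes, and against SCR replicates 4 to 6 siPOLR1D3 had 37. That last fit called 3110 of 15414 genes. Without siPOLR1D3 replicate 1, 2 or 3 the siPOLR1D3 count was 0, 4 and 2, and without 1 library the siPOLR1D2 count ranged from 5 to 20, with 9 or fewer without SCR replicate 4, 5 or 6, any 1 siPOLR1D2 library or siPOLR1D3 replicate 2.

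Of the 11 integrin chains on the list, 4 fell with siPOLR1D2 and 1 with siPOLR1D3, named here after their values were seen. With siPOLR1D2 they were ITGA1 at -1.41 (adjusted p = 0.00314 from limma), ITGA3 at -1.14 (0.0257), ITGA5, a chain of the fibronectin receptor, at -0.85 (0.0215), and ITGB4, the beta chain of hemidesmosomes, at -0.94 (0.0375). With siPOLR1D3 it was ITGB5 at -1.11 (adjusted p = 0.0431). ITGA1 was called with each of the 12 libraries left out, while ITGA5 lost the call without siPOLR1D2 replicate 3 (0.0805). ITGA3 lost it without SCR replicate 4, 5 or 6 or siPOLR1D2 replicate 1 or 2 (up to 0.118). ITGB4 lost it in 10 of those 12 fits, all but those without SCR replicate 1 or 2 (up to 0.145), and with upper quartile scaling (0.0510) or quantile normalization (0.0571). ITGB5 lost it without SCR replicate 1, 2 or 3, siPOLR1D2 replicate 1 or any 1 siPOLR1D3 library (up to 0.176). Against SCR replicates 1 to 3 none of the 4 siPOLR1D2 calls held (adjusted p = 0.170 to 0.351).

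Between the siRNAs 3 of the 108 were called (2.78%, against 2.94% of all genes). ITGA1, the alpha chain of a collagen receptor with ITGB1, ran from 1008 to 1312 normalized counts with siPOLR1D2, from 3069 to 3726 with siPOLR1D3 and from 1903 to 3919 in SCR. Only siPOLR1D2 set it outside the SCR range. The difference between siRNAs was 1.58 on the log2 scale (adjusted p = 0.0102 from limma), and it lost the call without siPOLR1D3 replicate 2 (0.0518) or 3 (0.0607). ITGB8, a chain that binds latent TGF-beta, held 105 ± 28.8 with siPOLR1D2 and 26.2 ± 7.09 with siPOLR1D3 (SD, n = 3 each), against 45.8 ± 22.0 in SCR (SD, n = 6), with a difference of -1.95 (adjusted p = 0.0334). LAMB2, a laminin beta chain, held 1221 ± 124 and 2087 ± 122 (SD, n = 3 each), against 1442 ± 284 in SCR (SD, n = 6), with a difference of 0.78 (adjusted p = 0.0408). The calls of ITGB8 and LAMB2 were lost without any 1 of the siPOLR1D3 libraries or siPOLR1D2 replicate 1 or 2, that of LAMB2 also without siPOLR1D2 replicate 3 or SCR replicate 4 or 5, with adjusted p from 0.0522 to 0.152.

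The genes whose pattern over the 20 libraries was nearest to that of TLN1 and TES were found by the root mean square distance between log2 values centred within each line, over 12723 genes. For TLN1 they were LSM14A (distance 0.199), which acts in RNA processing bodies, PANK3 (0.229), a pantothenate kinase of coenzyme A synthesis, and SAR1B (0.239), a GTPase of COPII vesicles, against a median distance of 0.574. SAR1B went from 740 ± 69.2 to 1615 ± 176 normalized counts in SW480 (SD, n = 6 each) and from 1248 ± 271 to 1294 ± 122 in HT29 (SD, n = 4 each). LSM14A went from 2584 ± 279 to 5321 ± 803 in SW480 and from 5030 ± 258 to 5556 ± 367 in HT29. None of the other 9 genes was among the 3 nearest.

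For TES the nearest were MAP1LC3B (0.259), an LC3 protein of autophagosomes, ZFAND1 (0.259), a zinc finger protein of stress granule clearance, and TNFRSF10B (0.262), the TRAIL receptor DR5, against a median of 0.781. TNFRSF10B went from 6955 ± 2736 to 3286 ± 546 normalized counts in SW480 (SD, n = 6 each) and from 5028 ± 3158 to 2771 ± 260 in HT29 (SD, n = 4 each). Like TES it was highest in the HT29 library that stood apart, at 9536. Of the adhesion genes ITGB1 came at rank 294, FLNA at 298 and PXN at 503 from TES. These distances share the libraries and the choice of TLN1 and TES and are a description.

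**Figure D4:**
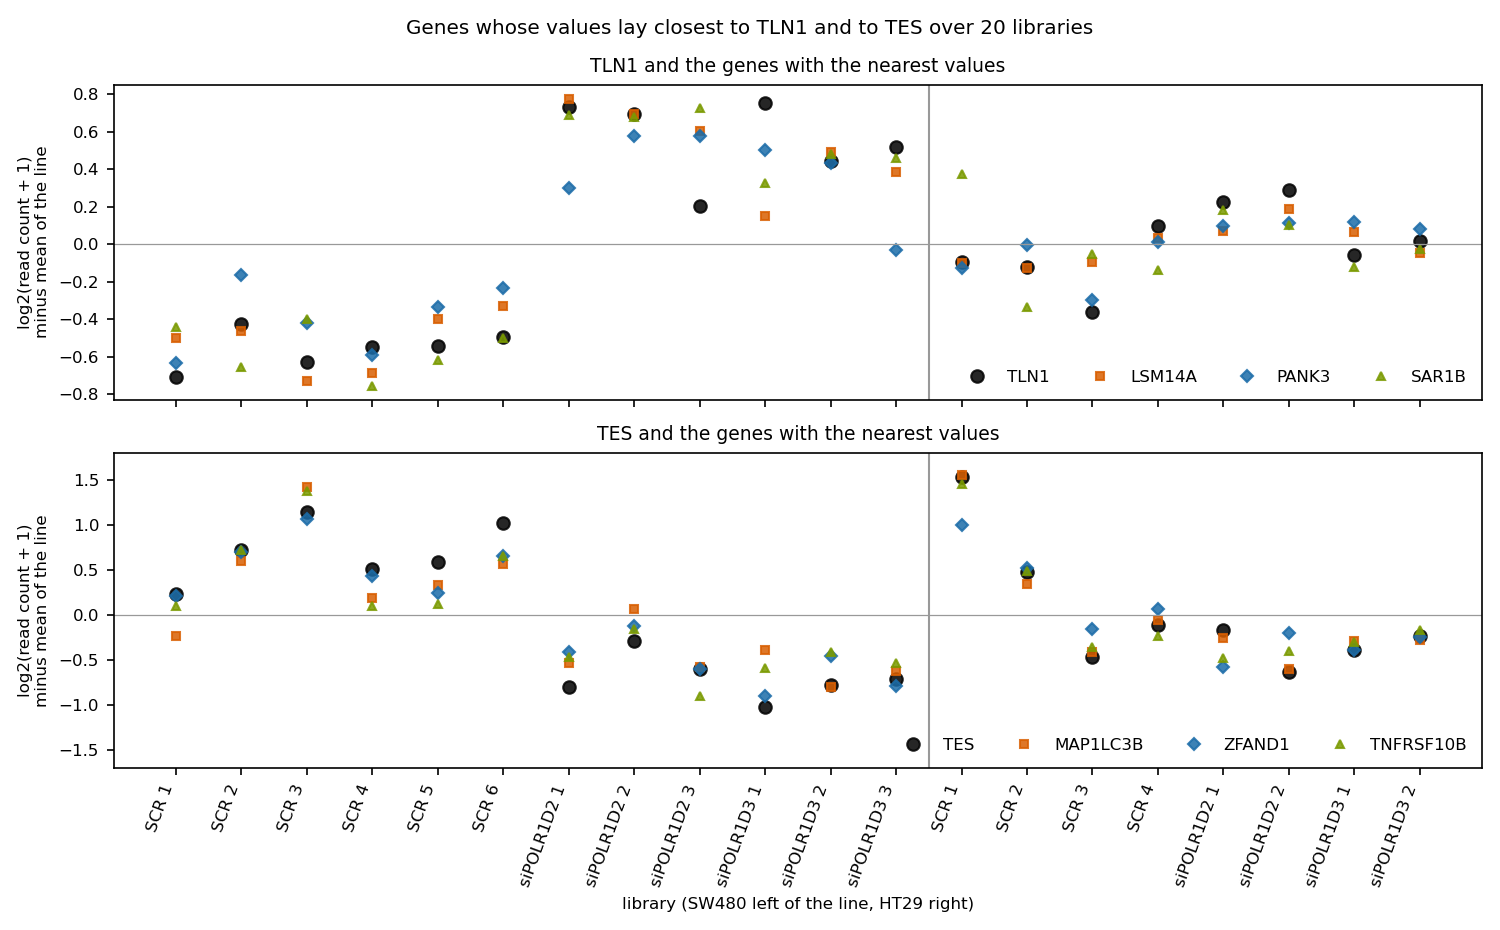
Log2 values centred within each line (vertical axis) of TLN1 and TES with their 3 nearest genes over the 20 libraries (horizontal axis, by line and group). The points of TLN1, LSM14A and SAR1B lie above 0 in every silenced SW480 library, and those of PANK3 in all but siPOLR1D3 replicate 3 (-0.028). In HT29 the points of TES, MAP1LC3B, ZFAND1 and TNFRSF10B are highest in SCR replicate 1.

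TLN1 lies on chromosome 9 (35696948 to 35732395, minus strand, GRCh38, GENCODE 29) and TES on chromosome 7 (116210493 to 116258783, plus strand). CREB3, a membrane-bound transcription factor gene on the opposite strand, starts 60 bases inside TLN1, and the strand of counting is not stated, so reads of the overlap cannot be assigned to one of them. CREB3 did not share the difference of TLN1, at -0.15 in SW480 (SE 0.11, adjusted p = 0.431 from limma) and -0.50 in HT29 (adjusted p = 0.506). Of the 16 protein-coding genes that start within 100 kb of the TLN1 start 11 were tested in SW480, 0 rose and 1 fell, RGP1, a factor of RAB6 activation (-0.48, adjusted p = 0.0104). Beside TES 1 of 2 genes was tested, CAV2, which encodes caveolin 2. It had -0.61 (adjusted p = 0.0873) in SW480, 0.0238 without SCR replicate 2 and 0.0452 with the side of the first component as a covariate, and 0.18 (adjusted p = 0.848) in HT29.

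**Figure D5:**
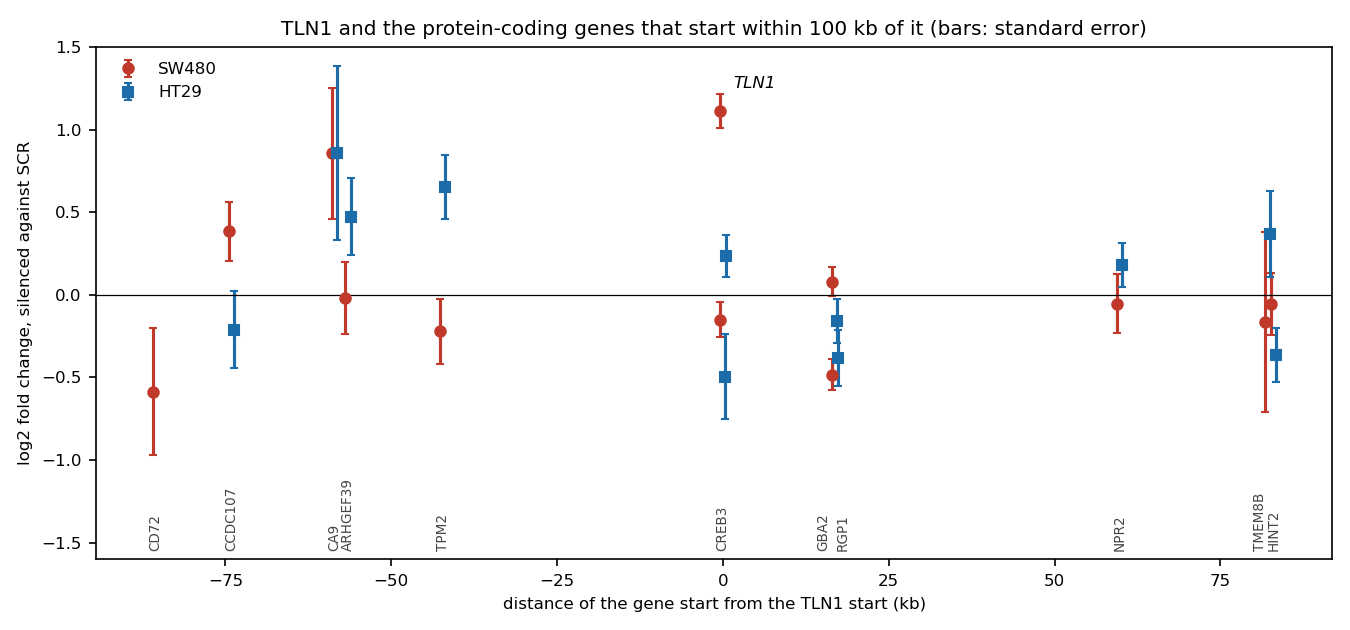
Log2 fold change with its SE (vertical axis) of TLN1 and of the tested genes that start within 100 kb, against distance from the TLN1 start in kb, in SW480 and HT29. TLN1 is at 1.12 in SW480, while CREB3, 60 bases away, is at -0.15.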

How the data were processed

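RNA was captured with an exome panel (TruSeq RNA Exome) and sequenced as 75-base read pairs. The authors deposited per-library gene values that, per the labels, were estimated with kallisto (0.44.0) and normalized with DESeq2 (1.24.0) against hg38. The index and annotation are not given in the sources used here. The deposited signal is thus a normalized count that is not a whole number, so no count model was run. Entries that share a name were summed. Values were compared as log2(value + 1) with limma 3.58.1 (R 4.3.3, trend), over genes with at least 10 in as many libraries as the smaller group, with 2-sided tests and Benjamini-Hochberg adjustment. Silenced libraries were compared with SCR within each line, pooled and by siRNA, and single genes by exact permutation (Python 3.11.15). The scripts were tested on simulated data. Some genes of the adhesion list are counted but not reported here by name. The 10 genes, the adhesion list and the markers were chosen with earlier results of these data known. Named were the 10 genes, up to 4 called list genes per role (ACTG1 was added after its values were seen), list genes called between siRNAs, the 3 nearest genes and neighbours of TLN1 and TES (the few that are named were picked among them after their values were seen). Alternatives were scaling, filter, pseudocount, leaving out each library, the side of the first component and the replicate number as a block. The deviations of same-numbered SCR and silenced libraries had a mean correlation of -0.030 in HT29 (from -0.13 to 0.034) and -0.085 in SW480 (from -0.41 to 0.57). Silenced libraries were centred over both siRNAs, so values of opposite sign can cancel in the mean. It therefore cannot show whether libraries were paired by number.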

Additional observations from a re-analysis of the deposited data

Results flagged for a closer look

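In 4 of 40 groups of 4 to 6 libraries 1 library stood farther from the rest than Dixon's 95% limit, where chance gives about 1 in 20 groups. VCL was highest in HT29 siPOLR1D2 replicate 1, at 4856.3 normalized counts, and the gap took up 0.917 of the spread of the 4 silenced libraries. VCL was lowest in SW480 siPOLR1D2 replicate 3, at 5676.52, the gap being 0.656 of the spread of 6 libraries. PXN was highest in SW480 SCR replicate 3, at 1297.15, the gap being 0.688 of the spread of 6 libraries. FLNA was highest in HT29 siPOLR1D2 replicate 1, at 22556.4, the gap being 0.915 of the spread of 4 libraries.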

How the results depend on the processing

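TLN1 stayed higher and TES lower in SW480 under every alternative run, with log2 fold changes with 1 library left out of 1.08 to 1.19 and of -1.49 to -1.31. Both were chosen for this difference and their groups did not overlap. Leaving out a library could therefore not turn the direction, and the stability is a description. The replicates of different groups share only a number. SW480 replicates 4 to 6 and HT29 replicates 3 and 4 exist only in SCR, so with the block they add nothing to the contrasts. The block therefore sets silenced libraries against SCR replicates 1 to 3 in SW480. In HT29 it sets them against SCR replicates 1 and 2, of which replicate 1 stood apart. With the replicate block VCL (-0.46, adjusted p = 0.164), PXN (-0.66, 0.148) and ITGB1 (-0.56, 0.186) lost their SW480 call and TES (-1.36, 0.0237), ZYX (-1.08, 0.0195) and FLNA (-0.95, 0.0307) gained one in HT29 (limma). The genes called with the block were 0 in SW480 and 735 in HT29 pooled, and 36 between the lines. In SW480 they were 13 for siPOLR1D2, 789 for siPOLR1D3 and 36 between siRNAs, and in HT29 12 and 23 for siPOLR1D2 and siPOLR1D3. With siPOLR1D3 in SW480 VCL (adjusted p = 0.154 from limma) and PXN (0.101) lost their call with the block. Of the adhesion list 9 were called in HT29 pooled with the block, and 0 in SW480 pooled, with siPOLR1D2 or between the siRNAs. Without the filter SW480 pooled had 666 calls (6 on the list) and the siRNAs differed in 289 (1), and with a minimum of 50 the list had 5 calls between siRNAs. Without the filter PTK2B, AJUBA, VASP, ACTG1 and ANKRD1 lost their pooled SW480 call (adjusted p up to 0.0887 from limma). So did ITGB4 with siPOLR1D2 (0.0522), ITGB5 with siPOLR1D3 (0.0537), and ITGB8 (0.0525) and LAMB2 (0.0552) between siRNAs. With the side as a covariate SW480 had 1993 calls (30 on the list), within the first side 0 (0) and within the second 1939 (26). Against SCR replicates 1 to 3 siPOLR1D2 had 0 calls (0 on the list), and against SCR replicates 4 to 6 siPOLR1D3 had 3110 (37). Quantile normalization gave 10 calls between the lines, and upper quartile scaling left 0 of the 10 genes under 0.05 in the exact HT29 test, from 1.

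Signs turned for ACTN1 in SW480 (0.011 with upper quartile scaling, 0.025 with quantile normalization, 0.22 with the block), ZYX on the second side (-0.0058), VCL in HT29 (0.0078 and 0.0069 with those scalings), ACTN4 in HT29 (0.018 with quantile normalization), ACTN1 in HT29 (-0.19 with the block), ITGB1 between siRNAs (0.068 and 0.080) and TLN2 with siPOLR1D3 (0.37 with the block). With 1 library left out the log2 values that changed sign ranged from -0.23 to 0.063 for ACTN1 in SW480 and from -0.076 to 0.18 in HT29, from -0.13 to 0.11 for VCL and -0.53 to 0.11 for ZYX in HT29, and from -0.76 to 0.080 for TLN2 with siPOLR1D2 in HT29. Between the siRNAs they ranged from -0.090 to 0.21 for FLNA, -0.14 to 0.13 for ITGB1, -0.0017 to 0.21 for PXN and -0.14 to 0.12 for TLN1. TLN2 with siPOLR1D2 in SW480 was called without SCR replicate 3 (adjusted p = 0.0421). The numbers called ranged from 534 to 1283 in SW480 pooled, 421 to 1794 for siPOLR1D2, 115 to 1345 for siPOLR1D3, 39 to 743 between siRNAs, 0 to 1 in HT29 and 0 to 23 between the lines, and on the list from 4 to 14, 5 to 20, 0 to 12 and 0 to 8 in the 4 SW480 comparisons in that order. The cause of these changes was not tested. Upper quartile scaling moved the median of all genes with siPOLR1D3 to 0.136 from 0.025 and the share of higher calls in SW480 pooled from 36.3% to 55.2% (45.6% with quantile normalization), with siPOLR1D2 from 38.2% to 48.8%, with siPOLR1D3 from 34.3% to 57.1% and between siRNAs from 49.7% to 61.9%. Since the original reads per gene were not recovered, counting error could not be set beside the spread.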
